A study of Mus musculus with 10 samples.

Results

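The genes described here encode the actin cytoskeleton and the proteins that bind it, measured by RNA sequencing in leukaemia cells of mice. They are 53 genes of the 38215 in the deposited table, chosen by name for what their proteins do and found in the table by symbol: actins, monomer-binding and severing proteins, Arp2/3 subunits and their activators, filament-side proteins, crosslinkers, non-muscle myosin II, adhesion and membrane linkers, and the intermediate filament gene Vim. The choice was made with earlier results of these data known. The cells were GFP+ splenocytes of mice with acute myeloid leukaemia (AML), all carrying the AML1-ETO fusion and the Nras G12D oncogene, which had been introduced into lineage-depleted bone marrow with the retrovirus MSCV-IRES-GFP. Every primary leukaemia arose in a Rag2-/-γc-/- mouse, a host without T, B or NK cells, and its GFP+ spleen cells were then transplanted again. The 10 libraries came from 5 immunocompetent C57BL/6J secondary recipients (libraries 1, 3, 4, 5 and 6) and 5 immunodeficient Rag2-/-γc-/- secondary recipients (libraries 7 to 11). The design asked how immunoediting, growth of the leukaemia under an intact immune system, changes its transcriptome. Neither the number of primary leukaemias behind these recipients nor the age of the mice is given, so p-values cover the spread between recipients and may miss differences between primary leukaemias.

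Actin exists as a monomer and as a filament, and a cell's shape and movement depend on how fast filaments are built, branched, bundled and taken apart. Profilin delivers monomers to growing ends, formins and the Arp2/3 complex start straight and branched filaments, and cofilins and gelsolin sever old ones. Tropomyosins and calponins lie along the filament, plastin, fascin, filamin and actinins tie filaments together, and ERM proteins and MARCKS link them to the plasma membrane. White blood cells rely on this machinery to crawl, to engulf particles and to form contacts with other cells. AML1 is another name of the transcription factor RUNX1, and many actin genes are targets of serum response factor, which binds a DNA motif called the CArG box.

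Depth was 32703932 to 44097690 expected counts per library in C57BL/6J recipients and 28157745 to 62461126 in Rag2-/-γc-/- recipients. The 53 genes took 4.39 to 6.25% of the counts in C57BL/6J libraries and 4.37 to 4.81% in Rag2-/-γc-/- libraries. The blood cell gene Ptprc was at 472 to 743 CPM (counts scaled to library size) in C57BL/6J libraries and 410 to 619.7 CPM in Rag2-/-γc-/- libraries, and the myeloid genes Itgam and Spi1 were at over 300 CPM in every library. Some other genes of that list of 10 differed between groups. Kit, of progenitors, was at 3.21 to 7.52 CPM against 0.163 to 0.434 CPM and called higher. Cebpa (1.03 to 4.96 CPM against 9.38 to 34.9 CPM), Cd34 and Csf1r were called lower, while Csf2ra, Lyz2 and Fcgr3 were not called. In C57BL/6J library 1 mitochondrial genes took 1.34% of the counts, against 2.91 to 4.0% in the other 9 libraries. The Rag2-/-γc-/- group was not uniform, since libraries 10 and 11 differed from 7, 8 and 9 over many genes. In bulk RNA, fewer cells of a type and less RNA per cell cannot be told apart.

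Promoter sequences were taken from RefSeq (GRCm38.p6) for the 47 genes with an entry. Windows of 250 bases before the annotated start were searched for the CArG box, because several of these genes are classical targets of serum response factor. The box was found in 6 of 59 member windows (10.2%), against 1.47% of all 32851 windows. These are the 6 boxes, in capitals, each with its flanks of 10 bases, read 5′ to 3′ on the gene's strand.
Vil1: ccctatcttcCCTTATATGGtgaaggaagt
Myl9: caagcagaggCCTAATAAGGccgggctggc
Cnn2: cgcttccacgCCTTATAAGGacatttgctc
Myl6: gctcttacttCCTTATATGGgcaggaccta
Actg1: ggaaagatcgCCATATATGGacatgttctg
Vcl: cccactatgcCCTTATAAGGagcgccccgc
They lie at chr1:74409301-74409330 (plus strand), chr2:156775293-156775322 (plus), chr10:79988534-79988563 (plus), chr10:128493040-128493069 (minus), chr11:120348566-120348595 (minus) and chr14:20929161-20929190 (plus), in the order printed. The first base of the box stood 73, 161, 56, 50, 90 and 227 bases before the start, in the same order. Of these 6 genes 5 had enough counts to be tested between the recipient groups, and none passed the threshold with all libraries.

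The promoters of the pair of genes that differed most steadily between the groups, Cnn3 and Vill, were also searched on both strands for TGNGGT. N is any base, so this pattern is looser than TGYGGT, the core motif of RUNX proteins, where Y is C or T. The windows of all annotated genes held TGNGGT in 40.1% and those of the members in 49.2%. The Cnn3 window (chr3:121426291-121426540, plus strand) had 78.8% G and C and no match. The Vill window (chr9:119052528-119052777, plus strand) had 56.4% G and C and 1 match, on the minus strand, shown in capitals. That match reads TGAGGT on the minus strand, so neither window held the stricter TGYGGT.
Cnn3: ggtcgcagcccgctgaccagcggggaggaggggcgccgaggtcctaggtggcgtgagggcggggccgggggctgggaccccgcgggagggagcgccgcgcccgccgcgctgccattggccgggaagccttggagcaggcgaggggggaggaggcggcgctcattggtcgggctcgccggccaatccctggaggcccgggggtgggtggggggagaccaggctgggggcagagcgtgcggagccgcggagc
Vill: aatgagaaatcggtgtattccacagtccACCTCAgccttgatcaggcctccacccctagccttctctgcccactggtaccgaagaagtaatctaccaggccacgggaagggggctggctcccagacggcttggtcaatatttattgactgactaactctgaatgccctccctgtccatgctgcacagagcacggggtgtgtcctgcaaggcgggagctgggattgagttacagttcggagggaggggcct
A match of letters in either window is a description and says nothing about binding.

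In cells from C57BL/6J recipients a few actin-binding proteins differed from those in Rag2-/-γc-/- recipients, while no member among the actin isoforms, the Arp2/3 genes or the non-muscle myosin II genes passed the test. Of the 53 genes, 49 had enough counts to be tested. Cnn3, Fscn1, Marcks and Dstn were higher in C57BL/6J recipients, and Vill and Capg were lower. The threshold was an adjusted p of 0.05 (Benjamini-Hochberg, over 13966 genes) in the quasi-likelihood test of edgeR. The 4 higher members are 8.16% of those tested, against 3.32% higher among all genes tested, and the 2 lower members are 4.08%, against 4.47%. The median log2 fold change, always C57BL/6J minus Rag2-/-γc-/-, was 0.08 over the tested members and 0.004 over all genes tested. Positive values were found in 30 members and negative ones in 18. The 5 values of one group lay wholly above or below those of the other in 7 members, 4 of them higher and 3 lower in C57BL/6J. The 3 lower ones include Flna beside the called pair. Over all tested genes such separation was seen in 4.13% (higher) and 4.37% (lower).

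**Figure D1:**
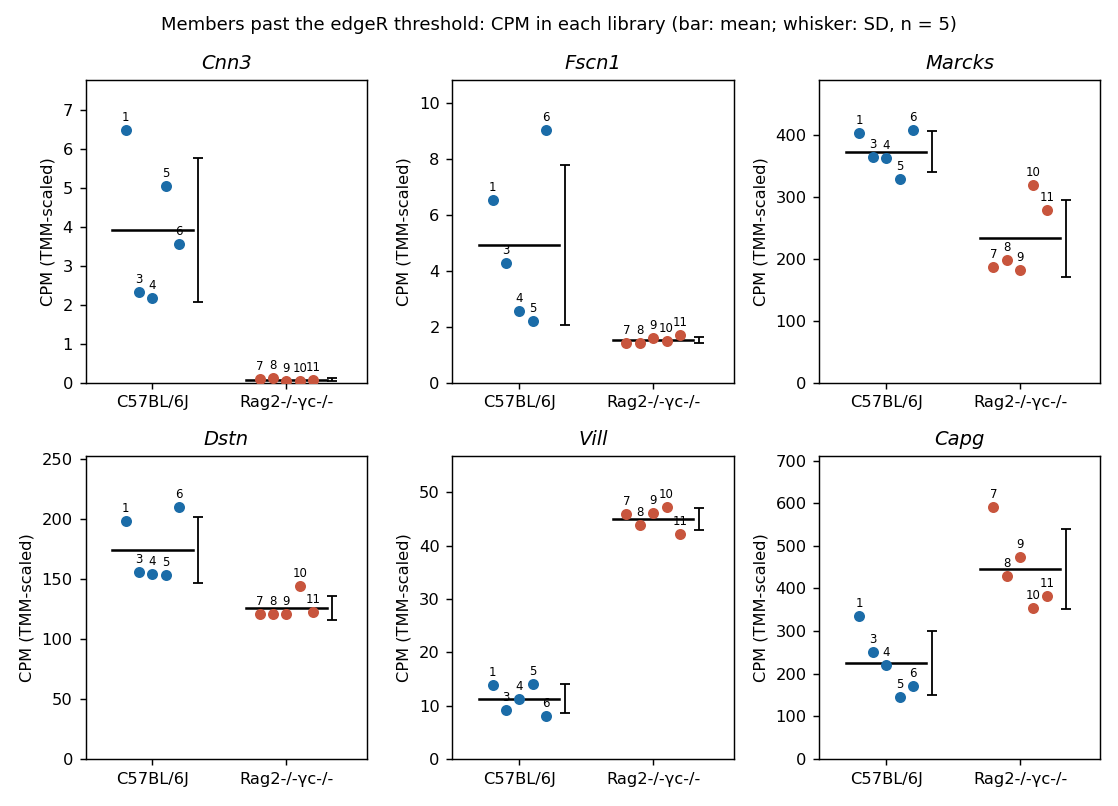
TMM-scaled CPM of the 6 genes past the threshold, 1 point per library with its number, C57BL/6J recipients on the left and Rag2-/-γc-/- recipients on the right; the line is the mean and the whisker the SD (n = 5 each). The groups are apart in every panel, by the widest relative gap in Cnn3 (2.18 CPM and above against 0.118 CPM and below) and by a narrow one in Marcks (328 CPM and above against 319 CPM and below).

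**Figure D2:**
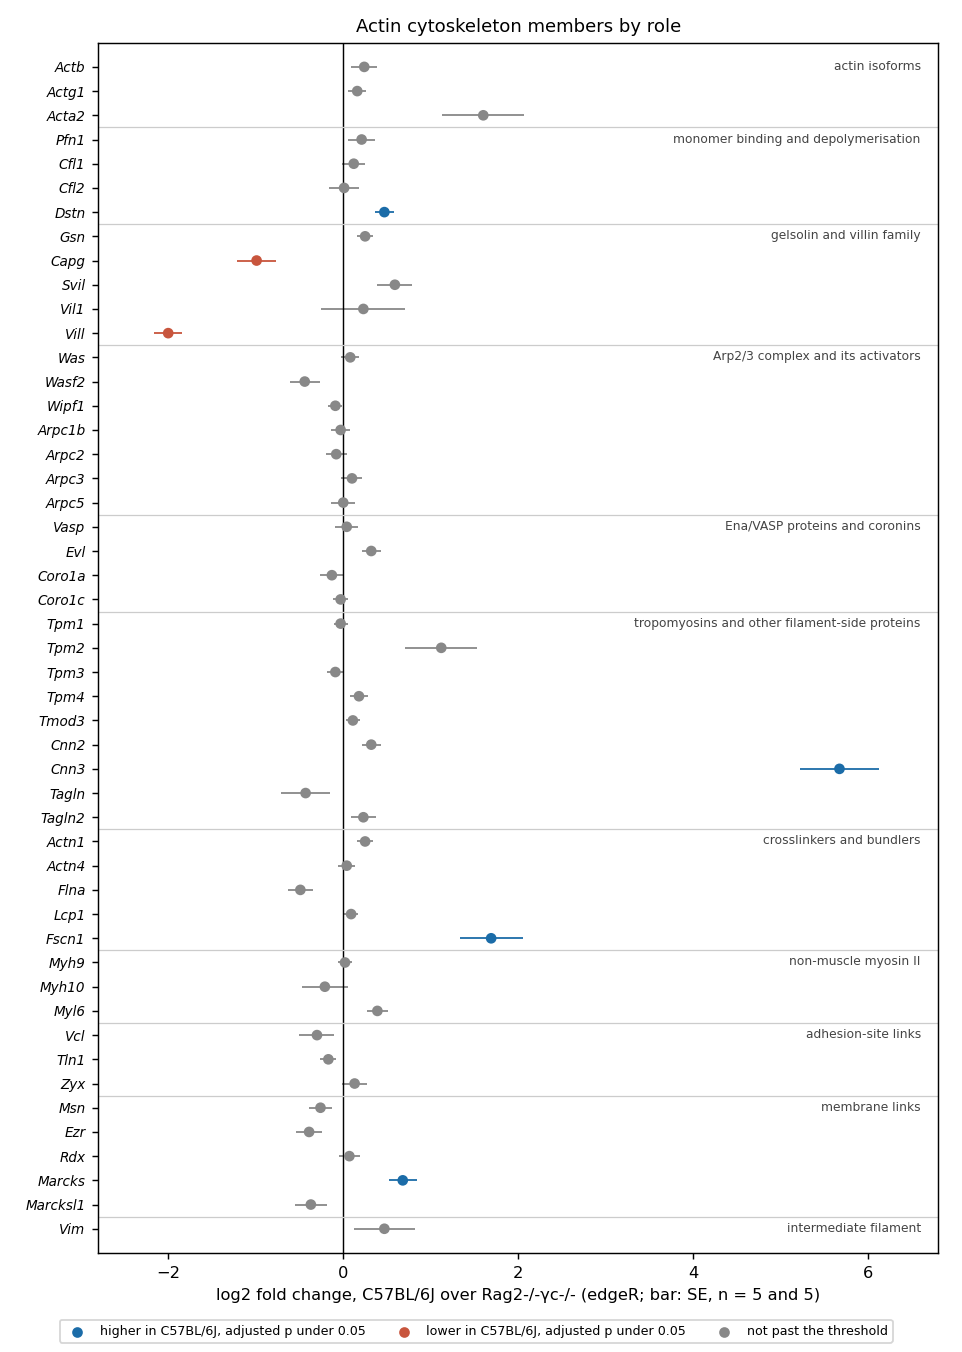
Log2 fold change (C57BL/6J over Rag2-/-γc-/-) with its standard error for the 49 tested members, in role groups. Most points lie near 0, and Cnn3 at 5.67 and Vill at -2.0 stand farthest out on either side.

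The actin isoforms themselves did not pass the threshold. Actb, the main cytoplasmic actin, had 22937, 13969, 13668, 13873 and 16172 CPM in C57BL/6J libraries 1, 3, 4, 5 and 6, against 13695, 12652, 12548, 15830.1 and 13703 CPM in Rag2-/-γc-/- libraries 7 to 11. Library 1 stood above all others and the rest of the groups overlapped (log2 fold change 0.24 ± 0.15, SE; edgeR adjusted p = 0.324). Actg1, the other cytoplasmic isoform and a holder of a CArG box, averaged 6078 ± 824 CPM against 5424 ± 339 CPM (SD, n = 5 each), again with overlap. Compared per kilobase of exon, Actb made up 70.4 to 75.8% of the summed level of the 3 actins in C57BL/6J libraries and 69.5 to 74.0% in Rag2-/-γc-/- libraries.

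Acta2 and Tpm2, known for their high levels in smooth muscle, were uneven within both groups. Acta2 had 93.8, 20.3, 19.9, 71.9 and 43.1 CPM in C57BL/6J libraries 1, 3, 4, 5 and 6, against 10, 12.4, 10.6, 31.1 and 18.2 CPM in libraries 7 to 11. Tpm2, a tropomyosin, had 6.35, 2.05, 2.23, 8.03 and 3.27 CPM, against 1.85, 1.28, 1.38, 2.78 and 2.83 CPM. Both were highest in libraries 1, 5 and 6, and library 10 lay within the C57BL/6J range for both genes, library 11 for Tpm2. Neither passed the threshold (Acta2 1.6 ± 0.47, edgeR adjusted p = 0.0638; Tpm2 1.12 ± 0.41, edgeR adjusted p = 0.122). Acta2 passed in DESeq2 (adjusted p = 0.0302). Without Rag2-/-γc-/- libraries 10 and 11 both did (Acta2 2.18, edgeR adjusted p = 0.0103; Tpm2 1.54, edgeR adjusted p = 0.0309).

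Markers of stromal cells were also measured. Summed markers of fibroblasts and smooth muscle (11 genes) were at 1.11 to 2.77 CPM in C57BL/6J libraries and 0.949 to 1.37 CPM in Rag2-/-γc-/- libraries, with the matrix genes Dcn and Lum at 0 counts in all 10. The sum was 1.53, 1.53, 1.8, 1.11 and 2.77 CPM in C57BL/6J libraries 1, 3, 4, 5 and 6. The collagen gene Col1a1 of this list was higher in C57BL/6J recipients, at 0.58 to 1.09 CPM against 0.131 to 0.373 CPM (1.58 ± 0.30, edgeR adjusted p = 0.00924). The other collagen genes of the list, Col1a2 and Col3a1, went the other way. They averaged 0.0604 and 0.0696 CPM in C57BL/6J libraries, against 0.124 and 0.19 CPM, and were too scarce to be tested. The smooth muscle myosin gene Myh11 had its highest value, 1.71 CPM, in library 6. Among the members, Cnn1, the calponin of smooth muscle, and Myl9, a smooth muscle myosin light chain, reached no more than 0.183 and 0.305 CPM in any library. Tagln, another smooth muscle gene, was at 1.13 to 2.06 CPM against 1.26 to 3.15 CPM, with its lowest C57BL/6J value in library 1. The part of stromal RNA in the levels of Acta2 and Tpm2 was not tested.

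**Figure D3:**
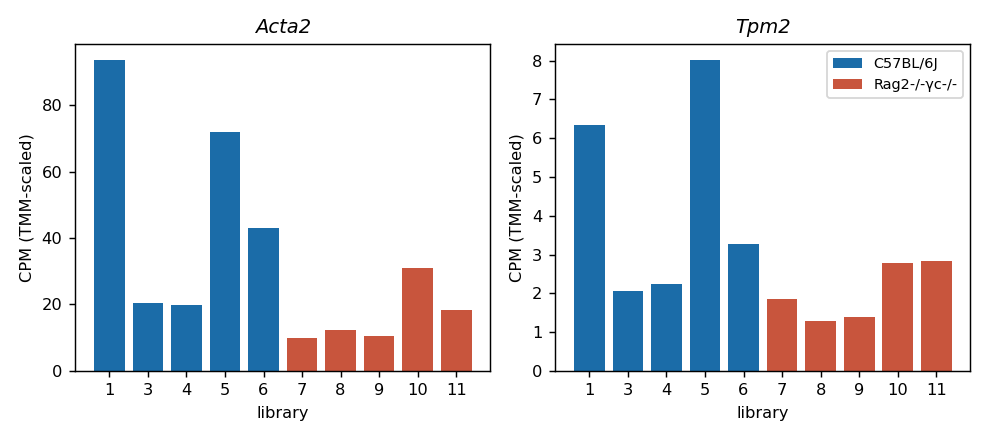
TMM-scaled CPM of Acta2 (left) and Tpm2 (right) in each library, C57BL/6J recipients in blue and Rag2-/-γc-/- recipients in red. Libraries 1, 5 and 6 have the tallest bars in both panels, up to 93.8 CPM for Acta2 and 8.03 CPM for Tpm2.

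Of the 4 genes for monomer binding and depolymerisation, 1 rose. Dstn (chromosome 2, 143915320 to 143943324), which encodes destrin, an actin-depolymerising factor of the cofilin family, had 198, 156, 154, 153 and 210.1 CPM in C57BL/6J libraries 1, 3, 4, 5 and 6, against 121, 121, 121, 144 and 122 CPM in libraries 7 to 11. All C57BL/6J values were above all Rag2-/-γc-/- values, of which library 10 was the highest. Dstn rose by 0.47 ± 0.11 on the log2 scale (edgeR adjusted p = 0.0272). Leaving out library 6 of the C57BL/6J group or 7, 8 or 9 of the other ended the call (edgeR adjusted p up to 0.0728), and without all 3 of the last (0.39, edgeR adjusted p = 0.359). The other members of the group were close between groups: Cfl1, the main cofilin of non-muscle cells, at 0.12 ± 0.13, the muscle-type Cfl2 at 0.01 ± 0.17 and profilin gene Pfn1 at 0.21 ± 0.15 (log2 fold change, SE). Per kilobase, Cfl1 held 83.6 to 87.9% of the cofilin family in C57BL/6J libraries and 86.7 to 89.4% in Rag2-/-γc-/- libraries, and Dstn 11.9 to 16.0% against 10.2 to 12.8%.

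The gelsolin and villin family had both genes that were lower in C57BL/6J recipients. Vill, named for its similarity to villin (chromosome 9, 119052778 to 119071525, GRCm38), had 13.9, 9.25, 11.3, 14.0 and 7.95 CPM in C57BL/6J libraries 1, 3, 4, 5 and 6, against 45.9, 43.9, 46.0, 47.3 and 42.1 CPM in libraries 7 to 11. The Rag2-/-γc-/- libraries were tightly grouped, with 10 and 11 beside 7, 8 and 9, and the highest C57BL/6J value was far below them. The log2 fold change was -2.0 ± 0.16 (SE; edgeR adjusted p = 5.99e-05), 3.99-fold lower in C57BL/6J. Vill remained past the threshold under all 21 alternatives, with log2 fold changes of -2.09 to -1.89. It was at -2.0 without libraries 10 and 11 (edgeR adjusted p = 0.000127) and -1.98 without 7, 8 and 9 (edgeR adjusted p = 0.00372).

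Capg (chromosome 6, 72544391 to 72562983), which encodes a protein of macrophages that caps filament ends without severing them, had 336, 251, 221, 146 and 169.9 CPM in C57BL/6J libraries 1, 3, 4, 5 and 6, against 592, 428, 473, 353 and 383 CPM in libraries 7 to 11. The groups did not overlap, but library 1, at 336 CPM, came close to library 10, at 353 CPM. Capg fell by 0.99 ± 0.22 on the log2 scale (edgeR adjusted p = 0.02), a 1.98-fold difference. Leaving out library 6 of the C57BL/6J group gave an edgeR adjusted p of 0.0554, leaving out library 9 of the Rag2-/-γc-/- group gave 0.0508, and without libraries 7, 8 and 9 it was 0.313 (log2 fold change -0.7). Summed markers of spleen macrophages (8 genes) were at 23.1 to 199 CPM in C57BL/6J libraries and 95.7 to 322 CPM in Rag2-/-γc-/- libraries, with library 1 the highest of its group for these too. In the Rag2-/-γc-/- group library 10 was the lowest for both Capg and this sum. Library 7, the highest for Capg, had a sum of 153 CPM, and library 8 had the highest sum with 428 CPM of Capg. The part of macrophage RNA in the difference was not tested.

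The remaining 3 of this family did not pass. Gsn, gelsolin itself, was the most abundant of them per kilobase (400 CPM per kb over all libraries), with 1224 to 1554 CPM against 1034 to 1326 CPM. It passed without libraries 10 and 11 (0.32, edgeR adjusted p = 0.0323; 0.25, edgeR adjusted p = 0.125 with all). Svil, encoding the membrane-bound supervillin, had 52.1 CPM in C57BL/6J library 1 and 89.9 to 103 CPM in the other 4, against 44.5 to 81.6 CPM in Rag2-/-γc-/- libraries. With all libraries it was at 0.59 ± 0.20 (edgeR adjusted p = 0.101), and without 10 and 11 at 0.77 (edgeR adjusted p = 0.0194). Vil1, the villin of gut and kidney brush borders, had 57 counts in all C57BL/6J libraries and 47 in all Rag2-/-γc-/- libraries.

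None of the 7 genes of the Arp2/3 complex and its activators passed the threshold. The subunit genes Arpc1b, Arpc2, Arpc3 and Arpc5 had log2 fold changes of -0.03, -0.08, 0.10 and 0.00, each with a standard error of 0.11 to 0.14. The sign of Arpc5 changed with the scaling. Was, encoding the Wiskott-Aldrich syndrome protein of blood cells, was at 140.2 to 189.8 CPM against 132 to 163 CPM, and Wipf1, its stabilising partner, at 201 to 236 CPM against 212 to 243 CPM. Wasf2, a WAVE protein that activates Arp2/3 at the leading edge, had 307, 366, 323, 298 and 274 CPM in C57BL/6J libraries, against 481, 514, 517, 288 and 325 CPM in libraries 7 to 11. Its values in libraries 7, 8 and 9 were above all C57BL/6J values and those in 10 and 11 were among them. It fell without libraries 10 and 11 (-0.68, edgeR adjusted p = 0.0011), and was at -0.44 with all (edgeR adjusted p = 0.138) and 0.04 without 7, 8 and 9 (edgeR adjusted p = 0.944).

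The Ena/VASP proteins, which lengthen filaments at their growing ends, and the coronins, which bind filaments and Arp2/3, had no gene past the threshold among 4. Evl was at 169.5 to 221 CPM against 131 to 185 CPM (0.32 ± 0.11, edgeR adjusted p = 0.106), and passed without libraries 10 and 11 (0.46, edgeR adjusted p = 0.0077). Vasp, with 0.04 ± 0.13, and Coro1c, with -0.03 ± 0.09, were close between groups. Coro1a, the coronin of white blood cells, was the 4th most abundant member per kilobase (633 CPM per kb). It had 2355 CPM in library 1 and 1378 to 1639.6 CPM in the other C57BL/6J libraries, against 1679 to 2086 CPM in Rag2-/-γc-/- libraries.

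The filament-side proteins held the largest fold change of all members, in Cnn3, which encodes the calponin of non-muscle tissues (chromosome 3, 121426541 to 121458205, GRCm38). Cnn3 had 6.47, 2.32, 2.18, 5.05 and 3.55 CPM in C57BL/6J libraries 1, 3, 4, 5 and 6, against 0.0848, 0.118, 0.0362, 0.0327 and 0.0759 CPM in libraries 7 to 11. That is 765 counts in C57BL/6J libraries and 15 in Rag2-/-γc-/- libraries, where no library had more than 5. All C57BL/6J values were far above all Rag2-/-γc-/- values, and libraries 10 and 11 were as low as 7, 8 and 9. The means were 3.91 ± 1.84 CPM and 0.0696 ± 0.0358 CPM (SD, n = 5 each). The log2 fold change was 5.67 ± 0.45 (SE; edgeR adjusted p = 5.99e-05), or 50.9-fold. Cnn3 remained past the threshold under all 21 alternatives, with log2 fold changes of 5.27 to 6.04. The gene overlaps exons of a transcript on the other strand, and the strand used in counting is not given in the sources used here.

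Summed lymphocyte markers separated the groups too. Summed T cell markers (8 genes) were at 58.6 to 113 CPM in C57BL/6J libraries and 18 to 44.0 CPM in Rag2-/-γc-/- libraries, most of it from Cd8a (48.6 to 107 CPM against 14.9 to 41.2 CPM), which dendritic cells can also express. The T cell receptor gene Cd3e was at 0.152 to 3.42 CPM against 0 to 0.0327 CPM. Summed NK cell markers (7 genes) were at 14.5 to 21.8 CPM against 3.07 to 10.3 CPM, of which Klrk1 gave 10.3 to 19.5 CPM against 2.45 to 7.82 CPM, while Klrb1c of the same list averaged 0.809 CPM against 2.07 CPM. Summed B cell markers (5 genes) were at 1.46 to 114 CPM against 0.686 to 1.22 CPM, highest in library 1. Library 1, the highest for Cnn3, was also the highest for Cd3e, the B cell sum and the NK receptor gene Ncr1 (0.214 CPM). Library 5 had 5.05 CPM of Cnn3, the second highest level, with the lowest Cd3e (0.152 CPM) and B cell sum (1.46 CPM) of its group, no counts of Ncr1 and a T cell sum of 76.7 CPM. The part of lymphocyte RNA in the difference was not tested.

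The other filament-side genes differed less. Cnn2, the calponin of blood cells and a CArG box gene, was at 755 to 1092 CPM against 643 to 782 CPM (0.32 ± 0.11, edgeR adjusted p = 0.102), and passed without libraries 10 and 11 (0.41, edgeR adjusted p = 0.0274). Because Cnn2 was so much more abundant, Cnn3 made up 0.212 to 0.538% of the calponins per kilobase in C57BL/6J libraries and 0.00338 to 0.0149% in Rag2-/-γc-/- libraries. Tpm4 and Tpm3 supplied most tropomyosin RNA, 59.9% and 38.6% per kilobase over the 10 libraries, at log2 fold changes of 0.18 ± 0.10 and -0.09 ± 0.10. Tpm1 was at -0.03 ± 0.08, the pointed-end capping gene Tmod3 at 0.11 ± 0.08 and Tagln2, the transgelin of blood cells, at 0.23 ± 0.14. Tagln fell without libraries 10 and 11 (-0.73, edgeR adjusted p = 0.0391), and was at -0.43 with all (edgeR adjusted p = 0.337). Cnn1 had 19 counts in all libraries together and was not tested.

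Of the 5 tested crosslinkers and bundlers, 1 rose. Fscn1 (chromosome 5, 142960343 to 142973185) encodes fascin, which bundles filaments in filopodia and in the processes of mature dendritic cells. It had 6.54, 4.27, 2.56, 2.20 and 9.03 CPM in C57BL/6J libraries 1, 3, 4, 5 and 6, against 1.42, 1.42, 1.59, 1.5 and 1.69 CPM in libraries 7 to 11. The Rag2-/-γc-/- libraries lay within a narrow band that all C57BL/6J libraries exceeded, libraries 4 and 5 by little. Fscn1 rose 3.22-fold, 1.69 ± 0.36 on the log2 scale (edgeR adjusted p = 0.0172). The call was kept when any 1 library was left out (edgeR adjusted p up to 0.0477). In limma-voom it was lost (adjusted p = 0.0516), and without libraries 7, 8 and 9 the size stayed at 1.62 with an edgeR adjusted p of 0.255. Libraries 6 and 1, the highest for Fscn1, had the highest T cell sums (113 and 94.6 CPM), of which Cd8a gave 107 and 65.6 CPM. Their Cd3e was at 0.73 and 3.42 CPM, while library 3, with less Fscn1 than both, had 1.41 CPM of Cd3e. Library 5, the lowest of the C57BL/6J group for Fscn1, had 74.8 CPM of Cd8a, more than library 1, and a T cell sum of 76.7 CPM. Libraries 6 and 1 also had the highest B cell sums (16 and 114 CPM). The part of lymphocyte RNA in this was not tested.

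Flna, encoding filamin A, a crosslinker that also binds integrins, had 667, 1017, 927, 997 and 1041 CPM in C57BL/6J libraries, against 1377, 1049.5, 1241, 1317 and 1551 CPM in libraries 7 to 11. The groups did not overlap, although library 6, at 1041 CPM, and library 8, at 1049.5 CPM, were close. Flna missed the threshold (-0.49 ± 0.14, edgeR adjusted p = 0.0517). It passed in DESeq2 (adjusted p = 0.0108) and when library 1, 8 or 10 was left out. The most abundant bundler per kilobase, the leukocyte plastin gene Lcp1 (261 CPM per kb), was at 0.09 ± 0.08. Actn4 was at 0.04 ± 0.10, and Actn1, its relative of stress fibres and adhesions, at 0.25 ± 0.09 (edgeR adjusted p = 0.129), passing without libraries 10 and 11 (0.33, edgeR adjusted p = 0.026). Pls3, the plastin of solid tissues, had 20 counts in all.

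Of the genes for non-muscle myosin II, the motor that contracts actin networks, none passed. The main heavy chain gene Myh9 was at 0.02 ± 0.08, with 1838 to 2095 CPM against 1753 to 2103 CPM. The other heavy chain, Myh10, was scarce (0.886 to 2.06 CPM against 1.27 to 1.85 CPM). Myl6, the essential light chain gene and another holder of a CArG box, had 617, 457, 446, 415 and 581 CPM in C57BL/6J libraries, against 373, 376, 374, 434 and 364 CPM in libraries 7 to 11. Library 10 was above C57BL/6J library 5, and the others were apart. Myl6 was at 0.39 ± 0.12 (edgeR adjusted p = 0.0721) and passed without libraries 10 and 11 (0.43, edgeR adjusted p = 0.0356). Myl9 had 28 counts in all libraries and was not tested.

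Of the adhesion-site genes, which connect integrins to actin, 3 were tested and none passed. Tln1, the talin that activates integrins, was the most abundant per kilobase of this group (149 CPM per kb) and had -0.17 ± 0.09. Zyx, encoding zyxin, had 0.13 ± 0.14. Vcl, encoding vinculin and also holding a CArG box, was at 47.5 to 70.7 CPM against 44.3 to 107 CPM. It was at -0.30 ± 0.20 (edgeR adjusted p = 0.358), and fell without libraries 10 and 11 (-0.53, edgeR adjusted p = 0.0192). The second talin gene, Tln2, had 34 counts in all libraries.

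Among the 5 membrane linkers Marcks rose. The gene lies on chromosome 10 (37133375 to 37138920). Its product binds actin and membrane phosphoinositides and leaves the membrane when phosphorylated by protein kinase C. Marcks had 403, 363, 362, 328 and 407 CPM in C57BL/6J libraries 1, 3, 4, 5 and 6, against 186, 198, 181, 319 and 278 CPM in libraries 7 to 11. Libraries 10 and 11 lay between the other Rag2-/-γc-/- libraries and the C57BL/6J libraries, and library 10 almost reached library 5. Marcks rose by 0.68 ± 0.16 on the log2 scale (edgeR adjusted p = 0.0269). The value was 0.99 without libraries 10 and 11 (edgeR adjusted p = 0.0002) and 0.33 without 7, 8 and 9 (edgeR adjusted p = 0.3). Leaving out any 1 of libraries 3, 6, 7, 8 and 9 also ended the call (edgeR adjusted p up to 0.0703).

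The relative Marcksl1, on average the more abundant per kilobase, had the other sign, 289 to 487 CPM against 328 to 639 CPM (-0.37 ± 0.18, edgeR adjusted p = 0.227). Marcks made up 24.6 to 35.1% of this pair per kilobase in C57BL/6J libraries and 10.3 to 27.8% in Rag2-/-γc-/- libraries. Of the ERM proteins, which fasten filaments to membrane receptors, Msn (moesin) supplied 71.6 to 77.6% per kilobase against 74.2 to 77.4%. Msn was at -0.26 ± 0.13 (edgeR adjusted p = 0.224) and Ezr (ezrin) at -0.39 ± 0.15 (edgeR adjusted p = 0.14). Both fell without libraries 10 and 11 (-0.40 and -0.60, edgeR adjusted p = 0.0202 and 0.00179) and were at 0.01 and 0.01 without 7, 8 and 9. Rdx (radixin) was at 0.07 ± 0.12.

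Vim, encoding the intermediate filament protein vimentin, had the widest ratio of highest to lowest library among members over 100 CPM (6.05). It had 912, 913, 822, 547 and 599.5 CPM in C57BL/6J libraries, against 724, 718, 709, 151 and 445 CPM in libraries 7 to 11. Rag2-/-γc-/- library 10 was far below all others and library 11 was the next lowest, while 7, 8 and 9 lay within the C57BL/6J range. The difference in Vim missed the threshold (0.47 ± 0.35, edgeR adjusted p = 0.411).

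Levels of the members spanned several orders of magnitude. Over all libraries 12 members averaged over 1000 CPM, 24 were between 100 and 1000, 6 between 10 and 100, 6 between 1 and 10, and 5 at 1 CPM or less. Per kilobase of exon, Actb led with 5564 CPM per kb, followed by Actg1 (2164), Pfn1 (806), Coro1a (633), Arpc2 (615) and Cfl1 (541). In 34 of the 49 tested members the highest library was less than 2 times the lowest. A single isoform dominated several families in both groups, with Cnn2, Lcp1, Tln1, Myh9 and Tagln2 each over 99% per kilobase.

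**Figure D4:**
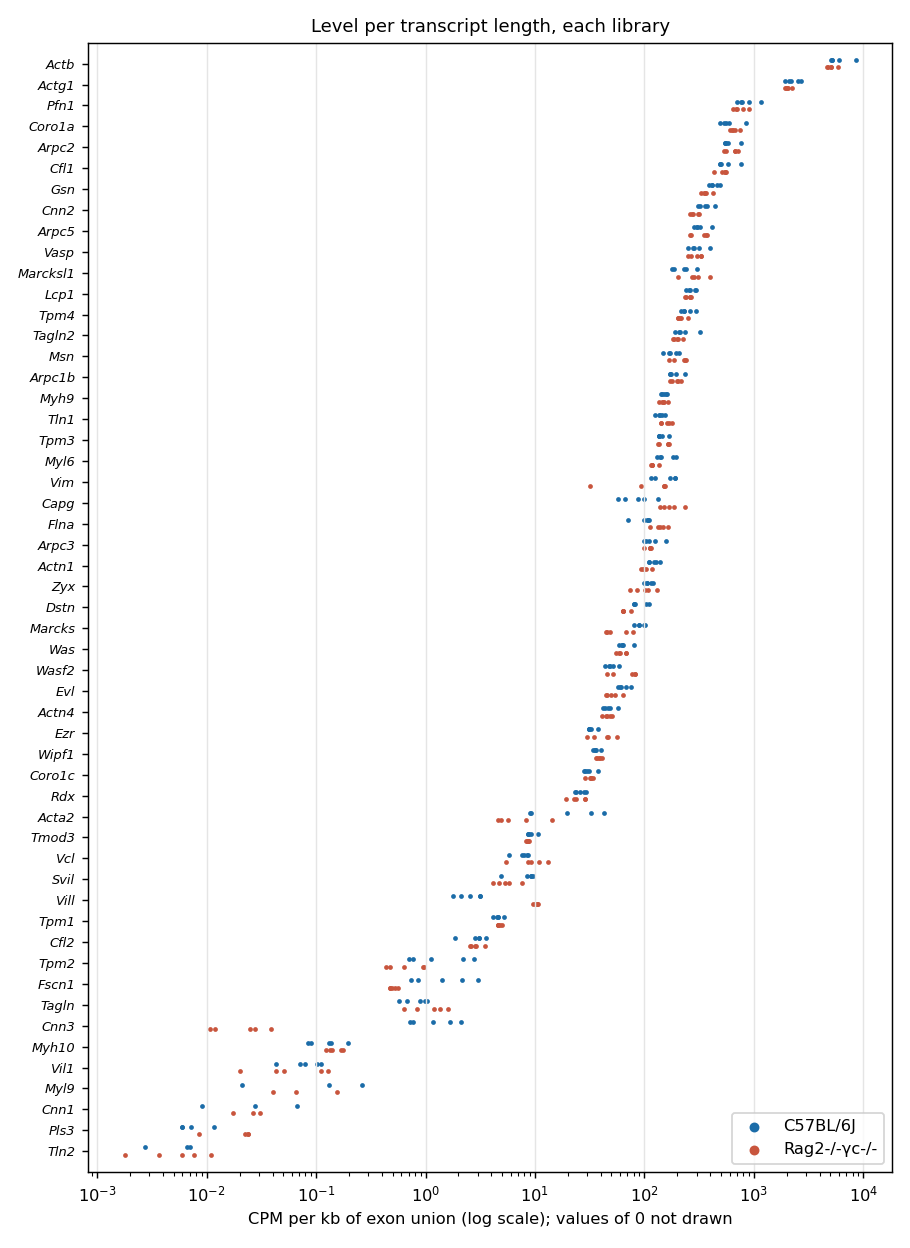
CPM per kilobase of exon for all 53 members in each library, on a log axis, ordered by the mean; C57BL/6J libraries are drawn in blue above the Rag2-/-γc-/- libraries in red, and values of 0 are not drawn. Points of both groups fall together for most genes, and lie clearly apart in Vill and Cnn3.

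Single libraries stood out over many members at once. C57BL/6J library 1 was the highest of the 10 in 25 of the 49 tested members (51.0%), against 20.1% of all genes tested, and the lowest in 4 (8.16%), against 21.1%. It exceeded the mean of the other C57BL/6J libraries 1.59-fold in Actb, 1.56-fold in Coro1a, 1.54-fold in Tagln2 and 1.49-fold in both Pfn1 and Cfl1, while its Svil and Flna were at 0.536 and 0.67 times that mean. This is the library with the low mitochondrial share and the high B cell sum. Rag2-/-γc-/- library 8 was the lowest in 15 members (30.6%), against 8.17% of all genes.

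Within the Rag2-/-γc-/- group, libraries 7, 8 and 9 were all above 10 and 11 in 15 members (30.6%, against 31.0% of all genes) and all below them in 17 (34.7%, against 29.5%). Libraries 10 and 11 both lay inside the C57BL/6J range in 24 members (49.0%, against 45.5%). The counts of changed members moved with these libraries. Without 10 and 11, 12 members were higher (24.5%, against 19.3% of all genes) and 7 lower (14.3%, against 17.4%). Without 7, 8 and 9, which leaves 5 libraries against 2, Cnn3 was higher and Vill was lower and no other member passed (2.04% in each direction, against 1.01% and 0.87%). The authors' labels give no batch for either set.

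**Figure D5:**
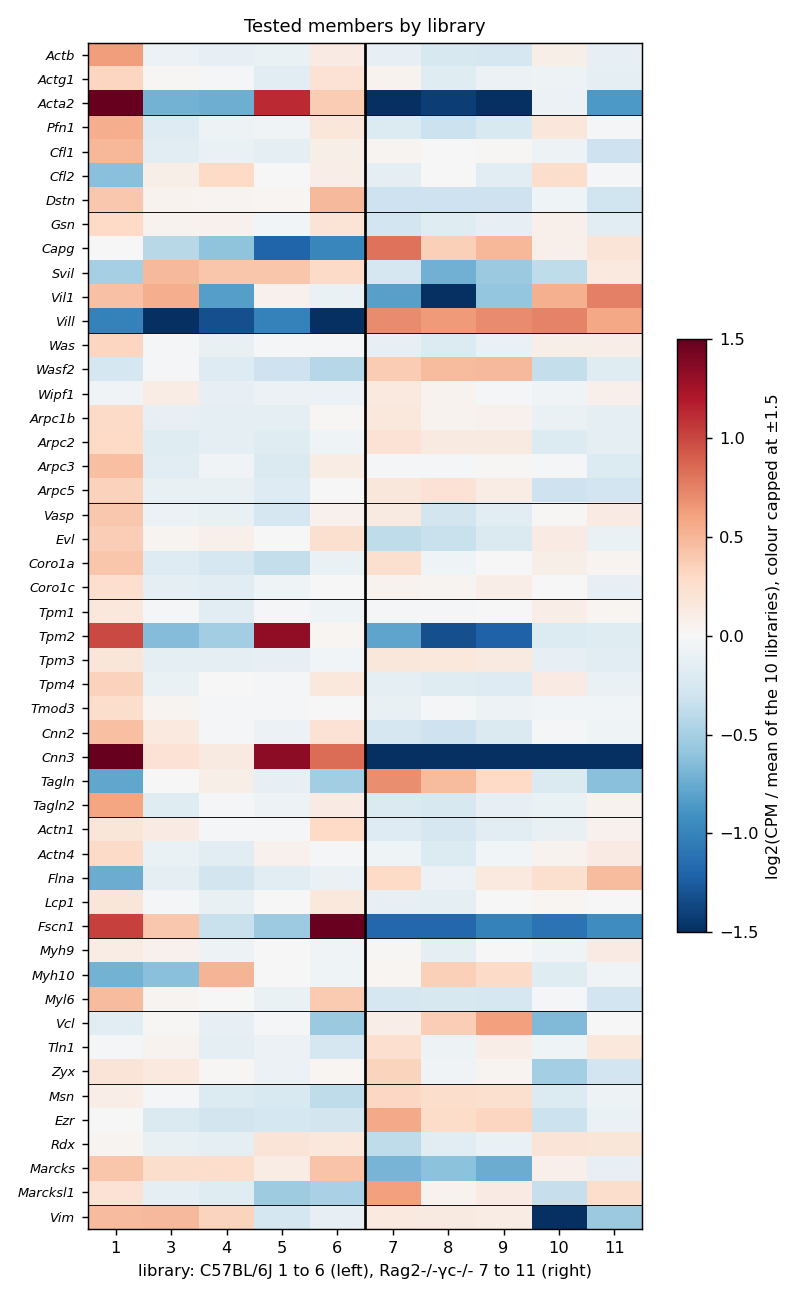
Log2 of CPM over the mean of the 10 libraries for the 49 tested members, 1 column per library, C57BL/6J recipients left of the thick line and Rag2-/-γc-/- recipients right of it; thin lines part the role groups and the colour is capped at 1.5. The column of library 1 is red in many rows, and the rows of Cnn3 and Vill change colour at the thick line.

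Among 90 further genes of actin regulation that are not members, 87 were tested, and 3 were higher (3.45%, against 3.32% of all genes) and 6 lower (6.9%, against 4.47%) in C57BL/6J recipients, with a median log2 fold change of 0.00. Of 9 formins, which build unbranched filaments, 3 fell (33.3%, against 4.47% of all genes) and none rose. This list was chosen with earlier results of these data known. Fmnl3 had 62.1 to 72.8 CPM against 95.2 to 123 CPM (-0.69 ± 0.09, edgeR adjusted p = 0.000933), a call that held when any 1 library was left out and without libraries 7, 8 and 9 (-0.72, edgeR adjusted p = 0.0111). Inf2, a formin that also severs filaments, had 12.8 to 23.7 CPM against 31.5 to 58.3 CPM (-1.27 ± 0.19, edgeR adjusted p = 0.00244). Fmnl1, the formin of white blood cells, was at -0.51 ± 0.14 (edgeR adjusted p = 0.0457), and lost its call without most single libraries, with an edgeR adjusted p of up to 0.119.

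The largest difference among these genes was in Tmod1, the pointed-end capping protein known from red cells and heart muscle. It had 0.0916, 0.222, 0.178, 0.174 and 0.0755 CPM in C57BL/6J libraries, against 6.65, 7.36, 7.24, 0.882 and 1.39 CPM in libraries 7 to 11. All Rag2-/-γc-/- values were higher, those of libraries 7, 8 and 9 by far the most. The log2 fold change was -4.94 ± 0.68 (edgeR adjusted p = 0.00134), -5.53 without libraries 10 and 11 and -2.90 without 7, 8 and 9 (edgeR adjusted p = 0.0181). Summed erythroid markers (7 genes) were at 8.6 to 87.6 CPM in C57BL/6J libraries and 38.3 to 134 CPM in Rag2-/-γc-/- libraries. C57BL/6J library 1, with 87.6 CPM of these, had 0.0916 CPM of Tmod1, and Rag2-/-γc-/- library 8, with 134 CPM, had 7.36 CPM. The part of red cell RNA in the difference was not tested. Exons of Tmod1 overlap those of a gene on the other strand. Without libraries 7, 8 and 9, Tmod1, Fmnl3 and Cyfip2 were the only ones of these 90 genes past the threshold.

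Of the spectrin, crosslinker and adhesion genes, Sptbn1, a spectrin of the membrane skeleton, fell by 0.54 ± 0.14 on the log2 scale (edgeR adjusted p = 0.0369, but up to 0.0887 with single libraries left out). Tmsb10, a thymosin that holds monomers, had 1370.3, 837, 979, 813 and 1098 CPM in C57BL/6J libraries, against 632, 603, 643, 717 and 639 CPM, and rose by 0.66 ± 0.14 (edgeR adjusted p = 0.0154). Cyfip2, a subunit of the WAVE complex, rose by 0.46 ± 0.11 (edgeR adjusted p = 0.0295, up to 0.0775 with single libraries left out). Myo1e, a membrane-bound class I myosin, had 4.86 CPM in C57BL/6J library 1 and 0.544 to 1.29 CPM in the other 4, against 0.0653 to 0.326 CPM, and its log2 fold change was 3.44 ± 0.68 with all libraries (edgeR adjusted p = 0.0114) and 2.57 without library 1.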

How the data were processed

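Poly(A)-selected RNA of GFP+ splenocytes was sequenced as single reads, per the labels' protocols. The authors deposited 1 table of expected counts per Ensembl gene. Cutadapt 1.11, STAR 2.5.2a, RSEM 1.2.30 and edgeR, with build GRCm38, are named per the submitters' processing notes; how they were run, with which strand setting and annotation, is not given in the sources used here. Such counts divide reads that fit several genes, so values of close paralogs (actins, tropomyosins, calponins) depend on that division.

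Libraries were grouped by title. Of a library's values 15.3 to 17.3% were not whole (any remainder), and all were rounded. Over 20 pairs of libraries within a group, chi-square over its degrees of freedom was 8.1 to 188.4, so all were kept as separate. Tests used edgeR 4.0.16 (R 4.3.3; quasi-likelihood F test, TMM, filterByExpr, group term) with Benjamini-Hochberg adjustment over 13966 genes. Fold changes are C57BL/6J over Rag2-/-γc-/-, and a standard error is the unshrunken coefficient over the square root of F. CPM are TMM-scaled. CPM per kb used the exon union of GENCODE M21. 

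The members and lists (90 pathway genes, 11 marker lists of 86 genes) were chosen with earlier results of these data known, and all 229 entries matched. All members were named, whether or not they passed the threshold. Of the pathway genes, up to 4 per list past the threshold with all libraries were named. The result of 1 pathway list is not reported here. Alternatives were RLE, upper-quartile and library-total scaling, DESeq2 1.42.0, limma-voom 3.58.1 with and without quality weights, 2 filters, a 1.5-fold threshold, each library left out, and 2 subsets of the Rag2-/-γc-/- libraries. The test was checked on simulated data. It recovered 21.4% of 1.5-fold, 61.7% of 2-fold and 91.4% of 4-fold changes, and 3.3% of its calls were false. Small differences can therefore be missed. The simulated libraries of a group varied independently around the same mean per gene, without the subsets seen among the Rag2-/-γc-/- libraries. The recovered and false shares may therefore differ in the real data.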

Additional observations from a re-analysis of the deposited data

Results flagged for a closer look

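Each tested member was examined within each group of 5 libraries for 1 library far from the others (Dixon's test, 95% level), and 12 of 98 groups were marked (12.2%), where chance marks about 1 in 20. C57BL/6J library 1 accounted for 7 of them. It had 22937 CPM of Actb (13668 to 16172 CPM in the other 4 of its group), 1539 CPM of Arpc2 (1102 to 1191), 2355 CPM of Coro1a (1378 to 1639.6) and 189.8 CPM of Was (140.2 to 150.3). It also had 119 CPM of Tmod3 (96.5 to 102) and 123 CPM of Ezr (102 to 106), and a low value, 52.1 CPM, of Svil (89.9 to 103). C57BL/6J library 3 had 236 CPM of Wipf1, with 201 to 211 CPM in the others.

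In the Rag2-/-γc-/- group library 10 was marked 3 times. It had 144 CPM of Dstn (121 to 122 CPM in the other 4), 554 CPM of Tpm4 (448 to 477) and 434 CPM of Myl6 (364 to 376). Library 11 had 274 CPM of Arpc3, with 310 to 321 CPM in the others.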

How the results depend on the processing

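With all libraries 4 members were higher and 2 lower, and 3 and 6 of the other pathway genes. DESeq2 called 7 members higher and 3 lower, and 7 and 6 pathway genes, against 5.75% and 8.27% of all genes. Limma-voom with sample quality weights called 12 members higher and 12 lower, and 14 and 27 pathway genes, against 23.7% and 23% of all genes. Against a 1.5-fold change 1 member was higher and 1 lower, and 1 and 2 pathway genes (0.902% and 0.852% of all genes). Leaving out Rag2-/-γc-/- libraries 10 and 11 gave 12 and 7 members and 11 and 20 pathway genes (19.3% and 17.4% of all genes), and without 7, 8 and 9 they were 1 and 1 members and 1 and 2 pathway genes (1.01% and 0.87%). With single libraries left out they ranged over 2 to 8 members higher, 1 to 5 lower, 2 to 6 pathway genes higher and 4 to 9 lower. The shares of all genes moved as well, over 1.94 to 7.58% higher and 2.15 to 9.32% lower. They were smallest without library 6 and largest without library 10. The 2 higher members came with library 6, 7, 8 or 9 left out, the 1 lower member with library 6 or 9 left out, and the 8 and 5 with library 10 left out. The cause was not tested. Of 1028 values of single members under alternatives, 943 kept their side of the threshold. These 943 kept their direction or changed sign by a shift under the standard error with all libraries. Of the rest, 20 lost their call, 49 gained a call, 16 without a call changed sign by a larger shift, and none reversed a call. Cnn1, Pls3, Myl9 and Tln2 had too few counts to be tested at this depth. No paired analysis was possible because the groups share no replicate numbers.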
